A study of Homo sapiens with 6 samples.

Results

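The MBD3L genes of chromosome 19 were jointly lower in TC71 cells with EHD1 knockdown than in the control line. The 5 other cleavage-stage genes of the set were not detected in either group. The set held 10 genes, among 60676 in the count table: the MBD3L copies MBD3L2, MBD3L2B, MBD3L3, MBD3L4 and MBD3L5, and the cleavage genes ZSCAN4, LEUTX, TRIM43, KDM4E and DUXA. The genes were chosen by symbol, for the joint fall of the MBD3L copies in the comparison described here, so their fold changes are given as a description without a test. The summed count of the 5 MBD3L copies was 240, 238 and 236 in the control (shNTC+Dox) libraries, against 34, 43 and 80 in those of the knockdown (shEHD1+Dox). ZSCAN4, LEUTX, TRIM43, KDM4E and DUXA had 0 counts in each of the 6 libraries, and DUX4 itself had 1 count in total. Of the 10 genes only the MBD3L copies were thus detected, which goes against a shared name of DUX4-type cleavage genes for what was measured, and the genes are described below as the MBD3L copies and the undetected cleavage genes.

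TC71 is a Ewing sarcoma cell line. RNA-seq was performed on stable lines that carried a doxycycline (Dox)-inducible lentiviral shRNA, either a non-targeting control (shNTC) or one against EHD1 (shEHD1), an endocytic recycling protein. Both groups received 0.5 µg/ml Dox for 3 days, with 3 libraries each, and served to ask which transcripts follow EHD1. The vector also encodes GFP and the lines were kept as puromycin-selected pools of cells. The study's methods do not say which of its EHD1 shRNAs was used for these libraries, so an effect of EHD1 loss and an effect of that hairpin on other transcripts cannot be told apart. No library without Dox was available here, so a difference between the lines that preceded induction cannot be told apart from these either. A fall or rise below means a difference between the lines, not a change seen on induction. No label says that the 3 libraries of a group came from separate cultures, so p-values measure the spread between these libraries, which may be technical.

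In the cleavage-stage human embryo, the double homeobox transcription factor DUX4 switches on a set of genes that are silent in most adult tissues, among them the MBD3L copies, ZSCAN4, LEUTX, TRIM43, KDM4E and DUXA. The MBD3L proteins resemble MBD2 and MBD3, subunits of the NuRD chromatin-remodeling and deacetylase complex, but lack the methyl-CpG-binding domain. They can enter NuRD in place of MBD2 or MBD3 and relieve its repression. The same set of genes is known from facioscapulohumeral muscular dystrophy, in which DUX4 is expressed in muscle.

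The 5 copies lie side by side at chr19:7018969-7069665 (GRCh38, GENCODE 44), a span of 50.7 kb with 2 genes on the plus strand and 3 on the minus strand. All are protein-coding, and no exon of the 10 genes overlaps an exon of another gene. MBD3L2B lies at chr19:7018969-7021431 (minus strand), MBD3L5 at chr19:7030578-7033011 (plus), MBD3L4 at chr19:7037749-7040179 (minus), MBD3L2 at chr19:7049321-7051735 (plus) and MBD3L3 at chr19:7056207-7069665 (minus). Because the copies fell together, the stretches just upstream of their RefSeq start sites (GRCh38.p14) are shown, 5′ to 3′ on the strand of each gene, with the CCAAT and TATAAA matches in capitals. The windows lie at chr19:7049210-7049288 for MBD3L2, chr19:7021483-7021561 for MBD3L2B, chr19:7058692-7058774 for MBD3L3, chr19:7040231-7040313 for MBD3L4 and chr19:7030443-7030525 for MBD3L5.
MBD3L2: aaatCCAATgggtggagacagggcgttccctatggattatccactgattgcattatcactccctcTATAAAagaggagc
MBD3L2B: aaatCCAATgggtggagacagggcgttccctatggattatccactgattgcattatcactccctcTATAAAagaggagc
MBD3L3: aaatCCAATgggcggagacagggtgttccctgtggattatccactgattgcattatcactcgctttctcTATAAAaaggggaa
MBD3L4: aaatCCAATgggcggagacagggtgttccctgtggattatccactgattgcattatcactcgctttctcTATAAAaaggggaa
MBD3L5: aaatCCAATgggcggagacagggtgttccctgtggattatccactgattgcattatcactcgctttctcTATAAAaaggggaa
The lines fall into 2 types. MBD3L2 and MBD3L2B shared 1 sequence of 79 bases, and MBD3L3, MBD3L4 and MBD3L5 shared another of 83 bases, with 72 of 83 aligned positions identical between the types. The TATAAA shown starts 29 bases before the RefSeq start in MBD3L3 and 46 to 66 bases before it in the other copies. Over the aligned parts of the full promoter windows (250 bases before to 50 after the start), identity was 100% within each type and 86.8 to 87.5% between types.

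On either strand, TATAAA was present in 11.5% and CCAAT in 34.6% of the 35116 RefSeq promoter windows of the same length, and all 5 MBD3L windows held both. The DUX4 motif was searched as an exact match on both strands. It was in 0.157% of all windows and in none of the MBD3L, ZSCAN4, LEUTX or DUXA windows. That says only that its exact letters are not in these windows, since near matches were not counted. All 5 MBD3L stretches printed above, which are only 2 distinct sequences, hold tgattgcatta. On the opposite strand it departs from the motif at a single base. How common such a near match is among all promoter windows was not counted, so its presence here cannot be judged. Whether DUX4 binds there was not tested. CG dinucleotides numbered 5 to 7 in the MBD3L windows, 6 in DUXA, 2 in ZSCAN4 and 5 and 4 in the 2 windows of LEUTX, against a median of 14 over all promoters. Counts this low are common, since 29.6 to 36.8% of all promoter windows had fewer than the MBD3L windows. The overlap of CCAAT and TATAAA with other motifs was not examined, and a match is a description of letters, not a binding site. RefSeq promoters were matched for 8 of the 10 genes, all but TRIM43 and KDM4E.

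The transcribed parts of the copies are nearly identical, which bears on every value given for a single copy. The stretch below is 1 read length (75 bases) of coding sequence, coding bases 61 to 135 counted from the A of the start codon, and is found letter for letter in all 5 copies. It is printed in lower case throughout, since no base in it tells the copies apart. In MBD3L2 it lies at chr19:7051056-7051130 (plus strand) and in MBD3L4 at chr19:7038353-7038427 (minus strand), both on GRCh38 and within an exon.
all 5 copies: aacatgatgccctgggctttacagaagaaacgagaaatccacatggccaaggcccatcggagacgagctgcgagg
It is the start of a run of 326 coding bases shared by the 5 copies. The longest shared coding run was 386 bases for MBD3L3, MBD3L4 and MBD3L5, and for MBD3L2 and MBD3L2B it was the whole aligned coding sequence of 612 bases. Coding identity between pairs of copies ranged from 98.6 to 100%. A 75-base read placed in 1 of these runs cannot be assigned to a copy by its sequence alone. The libraries were read in pairs, and the mate of such a read was not considered.

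Cutting the annotated transcripts into all 75-base windows showed how much of each copy is shared. Of the 700 windows of MBD3L4, 100% also occurred in another copy and 0 were unique to it. For MBD3L5 the shared part was 87.4% of 704 windows, for MBD3L2 83.6% of 719 and for MBD3L2B 74.6% of 767. MBD3L3, with 3 annotated transcripts and the longest gene body, shared 60.4% of 1039 windows and kept 411 of its own. No window of the 5 copies was found in a transcript of any other gene. By exact match to annotated transcripts, these windows are particular to the cluster as a whole. Near matches and sequence outside annotated transcripts were not searched. The division of the MBD3L counts among copies depends on how the authors' counting treated reads with several placements. The sources used here do not state this.

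**Figure D1:**
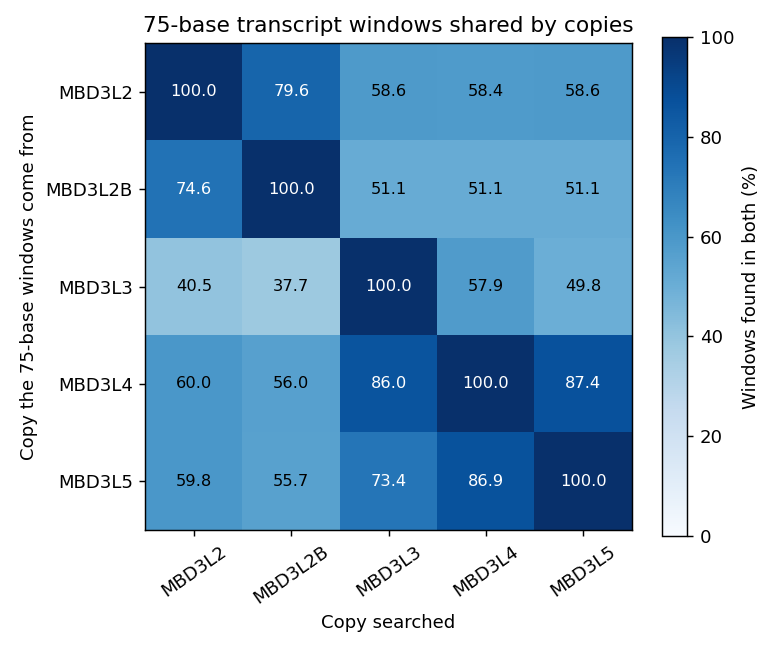
Share of the 75-base windows of each copy's transcripts (rows) that occur in each copy (columns), in percent, from GENCODE 44 on GRCh38. MBD3L2 and MBD3L2B share most windows with each other (79.6 and 74.6%), as do MBD3L4 and MBD3L5 (87.4 and 86.9%), and no window of MBD3L4 is its own.

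Library depth ran from 22711235 to 30582187 counts, and levels below are CPM, counts scaled by library size after TMM normalization. EHD1, the targeted gene, had 27.06, 27.96 and 26.34 CPM in shNTC+Dox against 7.54, 7.15 and 9.36 CPM with knockdown (log2 fold change -1.76, SE 0.12, edgeR adjusted p = 1.35e-04). The labels and the targeted gene thus matched in all 6 libraries. The 15 Ewing sarcoma markers had a summed level of 4936 to 5071 CPM in the controls and 4879 to 5117 CPM with knockdown, and of the 14 tested 3 fell and 1 rose. CCK, the marker not tested, had 11, 5 and 12 counts in the controls and 0 in each knockdown library. Over the 16785 genes that reached 10 counts in 3 or more libraries, edgeR called 8.75% lower and 8.59% higher in shEHD1+Dox at an adjusted p under 0.05. The share called in either direction with at least a 2-fold change was 2.82%, and the median log2 fold change was 0.00.

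The summed MBD3L level was 9.11, 8.59 and 10.6 CPM in the controls, and 1.19, 1.76 and 2.58 CPM with knockdown. Every knockdown library was below every control library, and the third knockdown library was the highest of its group. The mean fell from 9.42 ± 1.02 CPM (SD, n = 3) to 1.84 ± 0.699 CPM (SD, n = 3), a fitted log2 fold change of -2.34 (SE 0.26), which left 19.7% of the control level. Without shEHD1+Dox replicate 3 it was -2.68, and without shEHD1+Dox replicate 1 it was -2.10. Of the genes tested, 0.268% fell further than the summed copies, a place that follows from choosing the copies by their fall. In RNA from whole cultures, fewer cells expressing the cluster and less RNA per cell cannot be told apart.

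**Figure D2:**
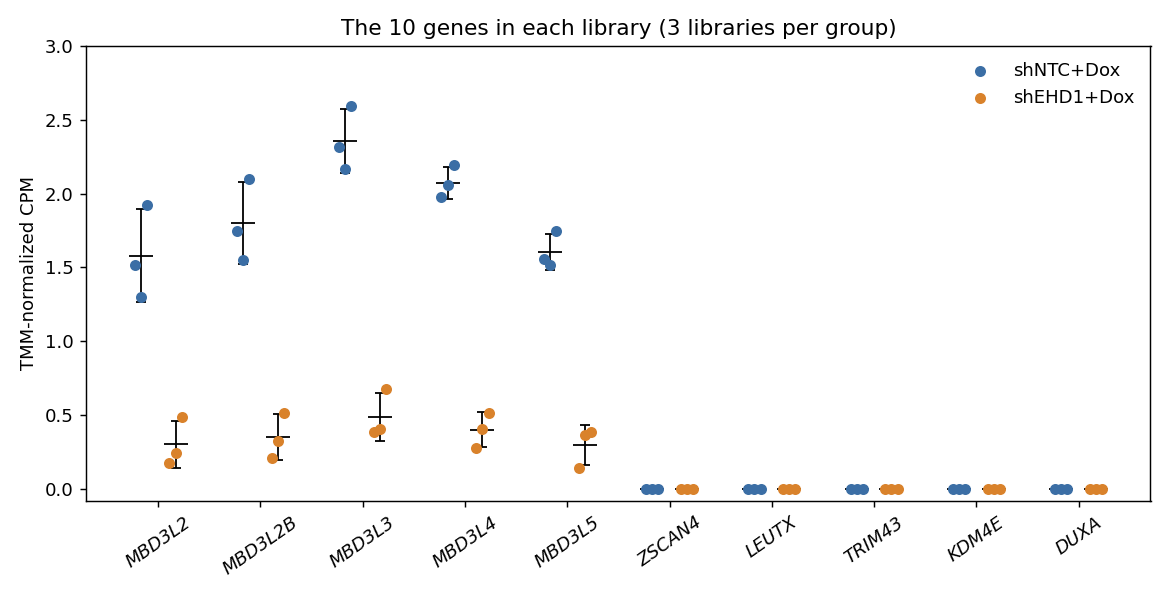
TMM-normalized CPM (linear axis) of the 10 genes in each of the 3 shNTC+Dox and 3 shEHD1+Dox libraries, as points, with the mean (horizontal tick) and SD (bar). All shEHD1+Dox points of the 5 MBD3L copies are below their shNTC+Dox points, and the 5 cleavage genes on the right are at 0 in all 6 libraries.

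Of the 10 genes, the 5 MBD3L copies passed the filter on low counts, each through its shNTC+Dox libraries, and only MBD3L3 had at least 10 counts in every library. MBD3L3 had 61, 60 and 58 counts in the controls against 11, 10 and 21 with knockdown. MBD3L4, the copy with no window of its own, had 52, 57 and 49 counts against 8, 10 and 16. These were the copies with the most counts in both groups, and in both the groups did not overlap. MBD3L2B had 46, 43 and 47 counts against 6, 8 and 16. MBD3L5 had 41, 42 and 39 counts against 4, 9 and 12. MBD3L2 had 40, 36 and 43 counts against 5, 6 and 15. In each of the 5 copies every shEHD1+Dox library was below every shNTC+Dox library in CPM, an arrangement seen in 19.4% of all genes tested and, for these copies, fixed by how they were chosen.

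The fitted falls were close to one another. Log2 fold changes were -2.41 (SE 0.40) for MBD3L5, -2.35 (SE 0.42) for MBD3L2, -2.35 (SE 0.31) for MBD3L4, -2.33 (SE 0.38) for MBD3L2B and -2.24 (SE 0.31) for MBD3L3. The range of these 5 values was smaller than the SE of any of them. They placed the copies between rank 37 and rank 52 among the 16785 genes when ordered by fall. The choice of the copies by their fall fixed this high place in advance. The mean level of MBD3L3 went from 2.36 ± 0.218 to 0.491 ± 0.162 CPM (SD, n = 3 per group) and that of MBD3L2 from 1.58 ± 0.317 to 0.302 ± 0.162 CPM (SD, n = 3 per group). Without shEHD1+Dox replicate 3, the library with the most MBD3L counts of its group, the fitted falls of all 5 copies deepened. They were -2.89 for MBD3L2, -2.73 for MBD3L2B, -2.66 for MBD3L5, -2.58 for MBD3L4 and -2.56 for MBD3L3. Without shEHD1+Dox replicate 1, the library with the fewest, all 5 copies still had fitted values of -2.06 or lower.

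Levels can be compared between copies only per length of transcript. On the CPM per kb scale, with the shortest annotated transcript as the length, the shNTC+Dox libraries of MBD3L3 ran from 2.66 to 3.19 and those of MBD3L4 from 2.55 to 2.83. MBD3L2B ran from 1.84 to 2.50, MBD3L5 from 1.95 to 2.24 and MBD3L2 from 1.64 to 2.42. MBD3L3 and MBD3L4 did not differ beyond their spread, nor did the lower group of MBD3L2B, MBD3L5 and MBD3L2. These levels also depend on how reads shared by copies were counted, which the spread between libraries does not measure. The place of MBD3L3 depends on the length used, since over all its annotated exon bases its mean was 2.12 CPM per kb in place of 2.90.

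The MBD3L count was divided among the copies alike in both groups. MBD3L3 made up 25.1% of the 714 summed counts of shNTC+Dox (95% Wilson interval 22.0 to 28.4%) and 26.8% of the 157 counts of shEHD1+Dox (20.4 to 34.2%). MBD3L4 made up 22.1% (19.2 to 25.3%) and 21.7% (15.9 to 28.7%). MBD3L2B held 19.0% and 19.1%, MBD3L5 17.1% and 15.9%, and MBD3L2 16.7% and 16.6%. Each share in shEHD1+Dox was within the interval of the same copy in shNTC+Dox. These intervals cover counting error only and treat counts as separate reads, which shared placements can break.

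Across libraries the 5 shares varied less than separate counts would. The chi-square of homogeneity over the 6 libraries was 4.28 on 20 degrees of freedom, or 0.214 per degree of freedom, where independent counts give values near 1. Within shNTC+Dox it was 0.200 per degree of freedom and within shEHD1+Dox 0.307. The 5 values per library are thus not 5 separate measurements, and whether reads were split among copies or counted in several was not tested. Leaving out MBD3L2 and MBD3L2B, the summed log2 fold change was -2.33, and for MBD3L2 with MBD3L2B alone it was -2.35.

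**Figure D3:**
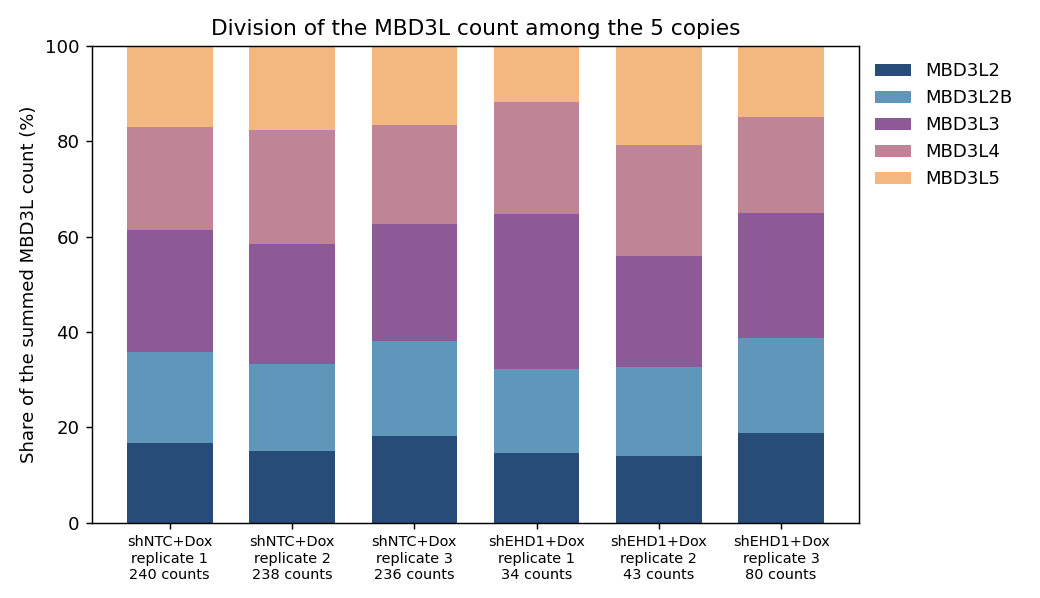
Share of the summed MBD3L count (%) taken by each of the 5 copies in each library, with the summed count under each bar. The bars are divided alike in both groups although the summed count ranges from 34 to 240.

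The 5 undetected cleavage genes were at 0 in both groups, so no fold can be given. ZSCAN4, a zinc finger protein of telomere maintenance, lies at chr19:57668935-57679152 (plus strand), LEUTX, a paired-like homeobox factor, at chr19:39776595-39786291 (plus) and DUXA, a double homeobox gene, at chr19:57154021-57167485 (minus). TRIM43, a tripartite motif protein, lies at chr2:95592001-95599778 (plus) and KDM4E, a histone H3 lysine demethylase, at chr11:95025258-95027596 (plus). For each of them 0 of the 160332666 counts of the series were assigned, which allows up to 0.0187 CPM over all libraries and 0.0968 to 0.134 CPM in a single library. This limit is set by 3 counts and covers counting error only. The lowest MBD3L level of any library, 0.140 CPM for MBD3L5 in shEHD1+Dox replicate 1, rested on 4 counts and was close to that limit.

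DUX4 had 1 count, in shEHD1+Dox replicate 1, and 0 in the other 5 libraries. Its near-identical repeats could take its reads, so the 42 entries named DUX4 or DUX4L were also examined, a choice made after the values were seen. Of these entries 18 had no count at all and 38 never exceeded 3 counts in a library. The 2 that passed the filter were the pseudogenes DUX4L9 and DUX4L50. DUX4L9 had 24, 22 and 33 counts against 34, 31 and 53 (edgeR adjusted p = 0.439). DUX4L50 had 42, 18 and 19 counts against 50, 25 and 55 (edgeR adjusted p = 0.365). In both the groups overlapped, and neither passed the test.

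Most genes of a wider cleavage-stage list were undetected, but a few were expressed at the level of the MBD3L copies or above it. Of 61 further genes with this pattern (PRAMEF, TRIM, RFPL and homeobox families, and MBD3L1), 60 were in the table, 47 had no count in any library, MBD3L1 among them, and 4 were tested. The summed level of the list was 11.1 to 12.5 CPM in the controls and 14.5 to 15.3 CPM with knockdown, higher in every knockdown library. CCNA1, a germline A-type cyclin, rose from 106, 100 and 101 counts to 280, 194 and 270 (log2 fold change 1.12, SE 0.16, edgeR adjusted p = 0.00264). It was the 1 gene of the list that passed the test, upward and with over 2-fold change, and its groups did not overlap. Its mean was 4.05 CPM in the controls and 8.82 CPM with knockdown, a larger difference than that of the summed list. The higher sum thus rested on CCNA1 and does not show a rise of the list as a whole. The mean of SLC34A2 went the other way, from 3.60 to 1.78 CPM. SLC34A2, a phosphate transporter, had 113, 115 and 53 counts against 48, 63 and 34, a log2 fold change of -1.03 that missed the threshold (edgeR adjusted p = 0.0766) and passed it without shNTC+Dox replicate 3 (edgeR adjusted p = 0.0184). KHDC1, with 73 to 107 counts a library, and FRG2, with 10 to 30, had log2 fold changes of 0.01 and 0.21 (edgeR adjusted p = 0.987 and 0.786). The median of the 4 tested genes was 0.11, against 0.00 for all genes.

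Most genes of a list of DUX4 and its known regulators were expressed in both groups. Of 30 listed genes 27 were tested, and 5 fell and 1 rose at an adjusted p under 0.05, a share to be read beside the 8.75% and 8.59% of all genes. DPPA2 and DPPA4, embryonic activators of the DUX4 family, had 0 counts in all libraries. CHAF1A, the large subunit of the histone chaperone CAF-1, fell from 79.21, 71.21 and 105.1 CPM to 45.49, 60.59 and 47.41 CPM (log2 fold change -0.74, SE 0.16, edgeR adjusted p = 0.0205). CHAF1B, its partner, fell by 0.54 on the log2 scale (edgeR adjusted p = 0.0292). Leaving out replicate 1 of shEHD1+Dox, the edgeR adjusted p was 0.0785 for CHAF1A and 0.109 for CHAF1B, and leaving out replicate 3 it was 0.0782 and 0.108, so neither call held.

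EHMT2, the histone H3 lysine 9 methyltransferase G9a, fell from 104.1, 106.0 and 117.9 CPM to 70.12, 70.34 and 73.71 CPM (log2 fold change -0.61, edgeR adjusted p = 0.00115), with no overlap between groups. DNMT3A, a de novo DNA methyltransferase, fell by 0.43 on the log2 scale (edgeR adjusted p = 0.0092), and E2F6, a DNA-binding subunit of a Polycomb complex, fell by 0.30 (edgeR adjusted p = 0.0196). LRIF1, a partner of SMCHD1, rose by 0.48 on the log2 scale (edgeR adjusted p = 0.0321). SMCHD1, the chromatin protein of which loss derepresses DUX4, had 183.2, 184.9 and 192.7 CPM against 180.8, 223.1 and 189.1 CPM and did not pass the test (log2 fold change 0.08, edgeR adjusted p = 0.561). Nor did the abundant genes NCL, TRIM28, CBX5 and PARP1, with log2 fold changes of -0.11, -0.12, -0.02 and -0.03 (edgeR adjusted p = 0.491, 0.519, 0.901 and 0.85). Left out singly, replicates 1 and 3 of shEHD1+Dox each brought the calls on this list from 6 to 2, with E2F6 at an edgeR adjusted p of 0.0953 and 0.0644 and LRIF1 at 0.0811 and 0.0568. E2F6 also missed the threshold without shNTC+Dox replicate 1 (edgeR adjusted p = 0.0682), and LRIF1 without shNTC+Dox replicate 2 (0.0855) or shEHD1+Dox replicate 2 (0.0895).

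The complex in which MBD3L proteins act was expressed in both groups. Of 24 NuRD and MBD family genes 23 were tested, of which edgeR called 4 lower and 0 higher (6 in either direction at an unadjusted p under 0.05, and 5 by DESeq2, which added CHD4 upward), beside 8.75% lower and 8.59% higher over all genes. The median log2 fold change was -0.10. MBD2 and MBD3, the subunits that MBD3L proteins resemble, had log2 fold changes of -0.15 and -0.33 and did not pass the test (edgeR adjusted p = 0.43 and 0.125). CHD4, the main ATPase of NuRD, went from 712.6, 712.1 and 703.4 CPM to 782.2, 800.7 and 782.1 CPM. This difference of 0.15 on the log2 scale did not pass the test (edgeR adjusted p = 0.124), though the groups did not overlap. Such separation was common, at 19.4% of all genes tested in the downward direction, and was not counted upward. ZNF827, a zinc finger protein that recruits NuRD to telomeres, fell by 0.72 (edgeR adjusted p = 9.93e-04). MBD4, a DNA glycosylase with a methyl-CpG-binding domain, fell by 0.39 (edgeR adjusted p = 0.00877, and 0.0502 without shEHD1+Dox replicate 1).

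CHD3, an alternative ATPase of NuRD, fell by 0.36 on the log2 scale (edgeR adjusted p = 0.00985), and GATAD2B, a structural subunit, fell by 0.32 (edgeR adjusted p = 0.0298). The histone-binding subunits RBBP4 and RBBP7 had log2 fold changes of -0.10 and -0.04 and did not pass. None of the 23 reached a 2-fold change. The 4 calls became 1 when shEHD1+Dox replicate 1 was left out and 2 when replicate 3 was. CHD3 then had an edgeR adjusted p of 0.0534 and 0.0536, and GATAD2B of 0.126 and 0.0989. GATAD2B was also lost without shNTC+Dox replicate 1 (edgeR adjusted p = 0.0997) or 2 (0.0685).

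KDM4E was silent, but its relatives were not. Of 5 further KDM4 genes, KDM4F had no count and 4 were tested. KDM4B, a demethylase of histone H3 lysine 9, fell from 43.46, 43.22 and 42.35 CPM to 21.4, 20.5 and 21.65 CPM (log2 fold change -1.02, SE 0.07, edgeR adjusted p = 1.38e-04). The 2 groups were far apart relative to their spread, and KDM4B was the 1 gene of this family in the 2.82% of genes called with at least a 2-fold change. KDM4A rose by 0.31 on the log2 scale (edgeR adjusted p = 0.00965), and this call was lost without shEHD1+Dox replicate 1 (edgeR adjusted p = 0.0514). KDM4C and KDM4D had log2 fold changes of -0.07 and 0.16 and did not pass.

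**Figure D4:**
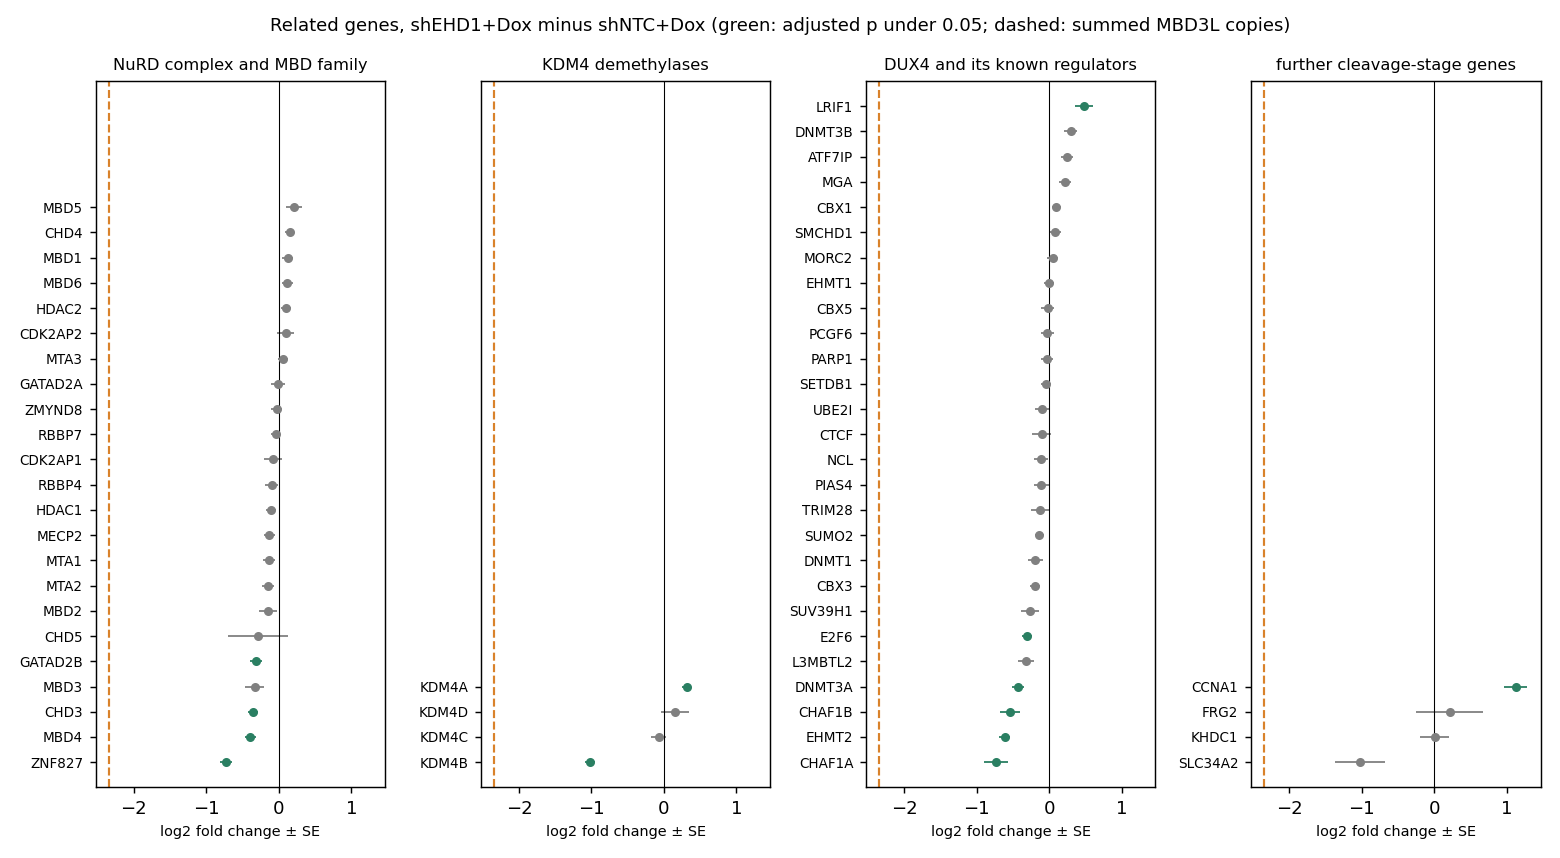
Fitted log2 fold change (shEHD1+Dox minus shNTC+Dox, bars are the SE) of each tested gene of the NuRD and MBD, KDM4, DUX4 regulator and further cleavage-stage lists, with genes at an edgeR adjusted p under 0.05 in green and the summed MBD3L copies (-2.34) as a dashed line. KDM4B (-1.02) and CCNA1 (1.12) are the 2 genes past the test with at least a 2-fold change, and SLC34A2 (-1.03), the lowest tested gene of these 4 lists, lies to the right of the dashed line.

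Pluripotency and germline genes were mostly undetected, with 14 of 24 at 0 and 3 tested. LIN28B, an RNA-binding repressor of let-7, rose from 49.0, 52.31 and 59.93 CPM to 65.59, 77.41 and 68.26 CPM (log2 fold change 0.39, edgeR adjusted p = 0.0272), a call lost in 5 of the 6 fits that left out 1 library (edgeR adjusted p = 0.0506 to 0.0903), all but the fit without shNTC+Dox replicate 3. POU5F1, the pluripotency factor OCT4, had 14, 18 and 13 counts in the controls and 0, 0 and 7 with knockdown. Every knockdown library was lower, as in 19.4% of all genes tested. With few counts, the log2 fold change of -2.78 (SE 0.89) missed the threshold (edgeR adjusted p = 0.062) and passed it without shEHD1+Dox replicate 3 (edgeR adjusted p = 0.0152). POU5F1 has near-identical pseudogenes that can share its reads. SOX2 had a log2 fold change of -0.14 and did not pass (edgeR adjusted p = 0.279).

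No tested gene beside the cluster was called lower. Within 500 kb of the cluster 36 other genes were annotated, 35 were in the table, 11 had no count and 14 were tested. Of these edgeR called 0 lower and 2 higher, as did DESeq2, with 3 at an unadjusted p under 0.05. Over all genes tested, 8.75% were called lower and 8.59% higher. With 14 genes, the calls beside the cluster cannot be told apart from those shares. ZNF557, a zinc finger gene that starts 37 bases beyond the longest MBD3L3 transcript, had 223, 242 and 259 counts in the controls and 217, 179 and 275 with knockdown. Its groups overlapped (log2 fold change -0.27, SE 0.16, edgeR adjusted p = 0.287). On the other side the nearest tested gene was VAV1, a guanine nucleotide exchange factor 162 kb away, whose groups also overlapped (log2 fold change -0.02, edgeR adjusted p = 0.902). Between VAV1 and the cluster, ADGRE1 and ADGRE4P had at most 5 counts in any library.

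The 2 neighbours that rose were far from the cluster. TNFSF9, a TNF family ligand 483 kb away, rose by 0.61 on the log2 scale (edgeR adjusted p = 0.0284), and ZNF358, a zinc finger gene 446 kb away, rose by 0.45 (edgeR adjusted p = 0.0134). Left out singly, replicates 1 and 3 of shEHD1+Dox ended both calls, with edgeR adjusted p = 0.107 and 0.114 for TNFSF9 and 0.0602 and 0.0677 for ZNF358. The call of TNFSF9 was also lost without shNTC+Dox replicate 1 (edgeR adjusted p = 0.0662) or 2 (0.0845). MCOLN1, a lysosomal channel gene 453 kb away, had 10.29, 10.21 and 12.39 CPM in the controls and 8.21, 8.33 and 8.68 CPM with knockdown. Every knockdown library was lower, as in 19.4% of all genes tested, with a log2 difference of -0.38 that missed the threshold (edgeR adjusted p = 0.0742). The median log2 fold change of the 14 neighbours was -0.03. The library kit does not keep strand, but no annotated exon of ZNF557 overlaps one of MBD3L3.

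**Figure D5:**
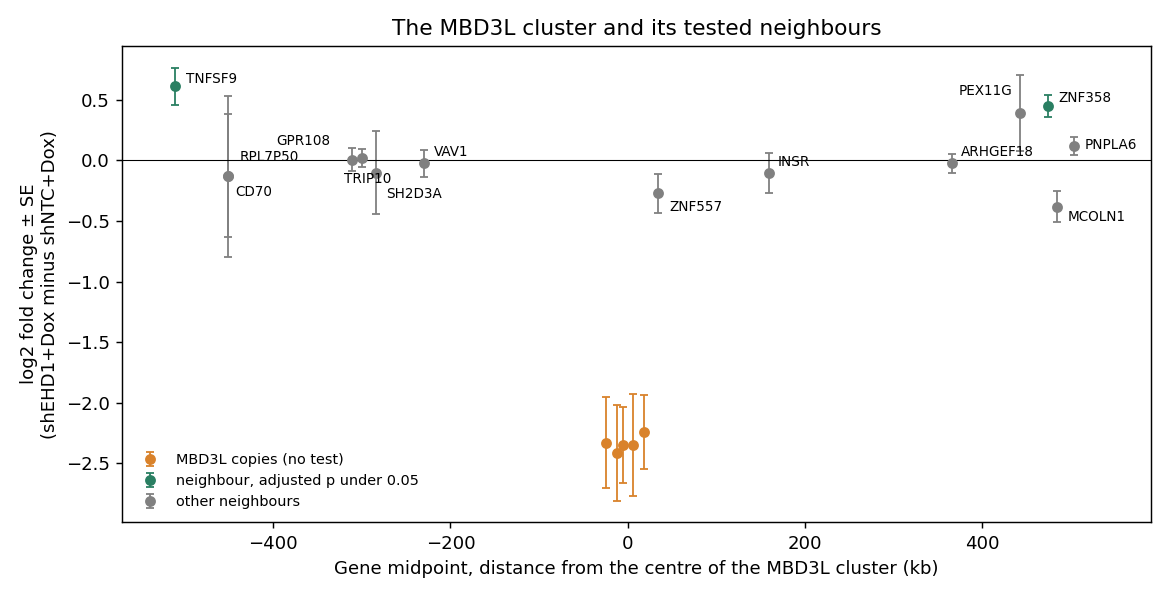
Fitted log2 fold change (shEHD1+Dox minus shNTC+Dox, bars are the SE) of the 5 MBD3L copies and the 14 tested neighbours against the distance of each gene's midpoint from the centre of the cluster, in kb. The 5 copies lie between -2.41 and -2.24, and all 14 neighbours within 1 log2 unit of 0.

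Genes with a like profile were sought over the 6 libraries, as those with the smallest root mean square difference between their centred log2 CPM and that of the summed copies, among 13158 genes with a mean of at least 1 CPM. The nearest were METTL7B, a membrane-bound methyltransferase (0.254 log2 units), SCD5, a stearoyl-CoA desaturase (0.260), KANK1, a regulator of actin (0.306), GNG4, a G protein gamma subunit (0.357), and HR, a nuclear corepressor (0.364). By the same measure the single MBD3L copies lay 0.096 to 0.181 from their sum, and EHD1 lay 0.398 from it. METTL7B had 891, 932 and 1296 counts in the controls and 202, 206 and 303 with knockdown, so that its highest knockdown library was also the third. These genes lie on chromosomes 12, 4, 9, 1 and 8. Since the measure includes the fall itself, their fold changes are no separate result.

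Some markers of other cell types differed between the groups. They are given beside the fall of the MBD3L copies, since DUX4 targets are known from muscle. Of 10 skeletal muscle markers 6 were at 0 in all libraries, MYOD1, MYOG, MYF5 and DES among them, and only 2, TNNT1 and MYH3, were tested. The summed level was 64.9 to 68.8 CPM in the controls and 40.6 to 52.0 CPM with knockdown. This sum rested on TNNT1, which fell by 0.52 on the log2 scale (edgeR adjusted p = 0.00873), and MYH3 fell by 1.08 (edgeR adjusted p = 0.036), a call lost without shNTC+Dox replicate 1 or 3 and without shEHD1+Dox replicate 2 or 3 (edgeR adjusted p = 0.0535 to 0.114). Of 10 fibroblast markers, POSTN was at 0 and PDGFRA never exceeded 3 counts, and the summed level was 224.5 to 277.6 CPM against 401.5 to 453.8 CPM. COL3A1 carried it with a rise of 0.89 (edgeR adjusted p = 7.32e-04), while DCN, also a fibroblast marker, fell by 1.01 (edgeR adjusted p = 0.00778). These were the only calls among the 8 fibroblast markers tested. Over all genes 8.75% were called lower and 8.59% higher. The part of these markers in the fall of the MBD3L copies was not tested.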

How the data were processed

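Total RNA of 6 TC71 libraries (3 shNTC+Dox, 3 shEHD1+Dox) was sequenced as 75-base read pairs from an unstranded kit. Per the study's methods, the authors aligned reads to hg38 with hisat2 under Ensembl annotation and quantified them with StringTie. The submitters' processing notes name STAR 2.7.3a, hg38 and DESeq2 instead, so the aligner behind the table is uncertain. The deposited values are raw counts, whole numbers for each gene with no scaling by the authors, and how reads with several placements were counted is not given in the sources used here. Groups came from the sample labels, and 0 columns were left without a sample.

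Counts were TMM-normalized and tested with edgeR 4.0.16 in R 4.3.3 (glmQLFit, robust, glmQLFTest, two-sided), on the 16785 genes that reached 10 counts in 3 or more libraries, and p-values were adjusted by Benjamini-Hochberg over all of them. All adjusted p-values in the text come from that fit unless another is named. A call means an adjusted p under 0.05, and with a change of at least 2-fold where stated. Log2 CPM used a prior count of 2. The same fit was also run on simulated counts, with the outcome not reported here. Gene positions and transcripts came from GENCODE 44, which held 60357 of the 60676 identifiers, and promoters from RefSeq (GRCh38.p14). Library totals ran from 22711235 to 30582187 counts.

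The members and lists were chosen with earlier results of these data known, and the lists were written from general knowledge. The genes named were the members, EHD1, and of each list those past the test with at least 2-fold change, else the 4 most abundant, with DUX4, DPPA2, DPPA4, SMCHD1, MBD2, MBD3 and CHD4 in any case, the called and nearest neighbours and the 5 genes nearest in profile. The other called genes of each list and CCK, MCOLN1 and the DUX4L entries were added after their values were seen. Alternatives were DESeq2 1.42.0 in place of edgeR (Wald test), its size factors alone, no filter, a filter of 10 counts in all 6 libraries, a block on the replicate number, a prior count of 0.5, sums of fewer copies and each library left out in turn.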

Additional observations from a re-analysis of the deposited data

How the results depend on the processing

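The summed MBD3L fall kept its direction under every alternative run, from -2.68 to -2.10 on the log2 scale when 1 library was left out and -2.35 with the Wald test of DESeq2. Single copies rest on 4 to 21 counts in each shEHD1+Dox library, and at least 10 counts in every library left MBD3L3 alone of the copies. The same replicate numbers did not pair the libraries (correlations of deviations 0.072, -0.0593 and -0.0448). With the replicate block the summed fall was -2.40, the number of genes called over the whole table fell from 2910 to 1766, that of the DUX4 regulators from 6 to 2 and that of the neighbours from 2 to 1, while the further cleavage genes went from 1 to 2. The Wald test of DESeq2 called 2 further cleavage genes and 2 pluripotency genes in place of 1 each, adding SLC34A2 and POU5F1, and also CHD4 (adjusted p = 0.0324).

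With each library left out in turn, the calls ranged from 1322 to 3616 over all genes, 2 to 6 for the DUX4 regulators, 1 to 4 for NuRD, 1 to 2 for KDM4, 1 to 2 for the further cleavage genes, 0 to 1 for the pluripotency genes and 0 to 2 for the neighbours. The fits had fewer samples, and no other cause was tested. Genes that turned direction in such a fit, none of them called, were SMCHD1 (-0.015 to 0.142), CBX5 (-0.108 to 0.048), TRIM28 (-0.204 to 0.04), PARP1 (-0.078 to 0.036) and VAV1 (-0.15 to 0.071). EHD1, CCNA1, KDM4B, EHMT2, DNMT3A and ZNF827 kept their calls in all 11 alternatives.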
